A study of Rattus norvegicus with 8 samples.

Results

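The comparison described here is the difference between RIE-Ras and RIE cells in how they answer TGF-beta-1, a transforming growth factor. All 8 of the 8 arrays of the series were used, 4 of RIE-Ras cells and 4 of RIE cells, each with treated RNA in 1 channel and control RNA in the other. RIE cells are intestinal epithelial cells of the rat, grown as a line, from which RIE-Ras was derived by stable transfection with pSV2-H-Ras(12V), a construct that carries human coding sequence for an H-Ras made constitutively active by a change at residue 12. In the RIE-Ras group, cells treated with TGF-beta-1 at 2 ng/ml for 1 hr were set against control RIE-Ras cells, and in the RIE group, RIE cells given the same treatment were set against control RIE cells. Each value thus compares treated with control RNA of 1 line as a log2 ratio, centred on the median of its array, and the contrast is the mean ratio of the 4 RIE-Ras arrays minus that of the 4 RIE arrays. A channel effect that is the same on all arrays cancels in this contrast. The labels do not say whether RIE-Ras is a clone or a pool, and no line with an empty vector was analysed here, so the action of Ras and other differences between the lines cannot be told apart. The ratios carry no level within a line, so neither the level of a gene in untreated cells nor the labelled cell type could be checked from markers, and the Hras feature is no check of the transfected gene, which control and treated RIE-Ras cells both carry.

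TGF-beta binds a pair of receptor serine/threonine kinases that phosphorylate Smad2 and Smad3, which enter the nucleus with Smad4 and switch target genes on or off. In epithelial cells it is known for stopping proliferation, in part by repressing Myc. Active Ras drives the Raf, MEK and ERK kinase cascade, and cells with oncogenic Ras are known to keep some TGF-beta responses while escaping growth arrest.

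The array values held 20500 features, which became 17402 after features of the same gene symbol were averaged, 9652 of them named. Array medians before centring lay between 0.20 and 0.41 for RIE-Ras and between 0.23 and 0.45 for RIE on the log2 scale. Correlations within a line and between lines covered overlapping ranges: Pearson r across features ran from -0.05 to 0.35 within RIE-Ras, from 0.08 to 0.69 within RIE and from -0.11 to 0.40 between lines, as a description over features that are not independent. RIE-Ras replicate 1 stood apart, with r between -0.11 and 0.14 to the other arrays and 8.71% of features below -1, while RIE replicates 3 and 4 were the closest pair. The SD of the centred values (from the median absolute deviation) was 0.401 ± 0.0203 for RIE-Ras arrays and 0.371 ± 0.127 for RIE arrays (SD, n = 4 each; exact permutation test, two-sided, p = 0.657). On average 3.84% of features lay above 1 in RIE-Ras and 2.17% in RIE (exact p = 0.114, adjusted over 3 measures 0.343). Below -1 lay 3.38% in RIE-Ras and 2.66% in RIE, with exact p = 0.629, and the smallest p this design allows is 0.0286. Since nothing in the labels says that replicates are separate cultures, the spread behind each p-value is that of these arrays and may be technical.

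**Figure D1:**
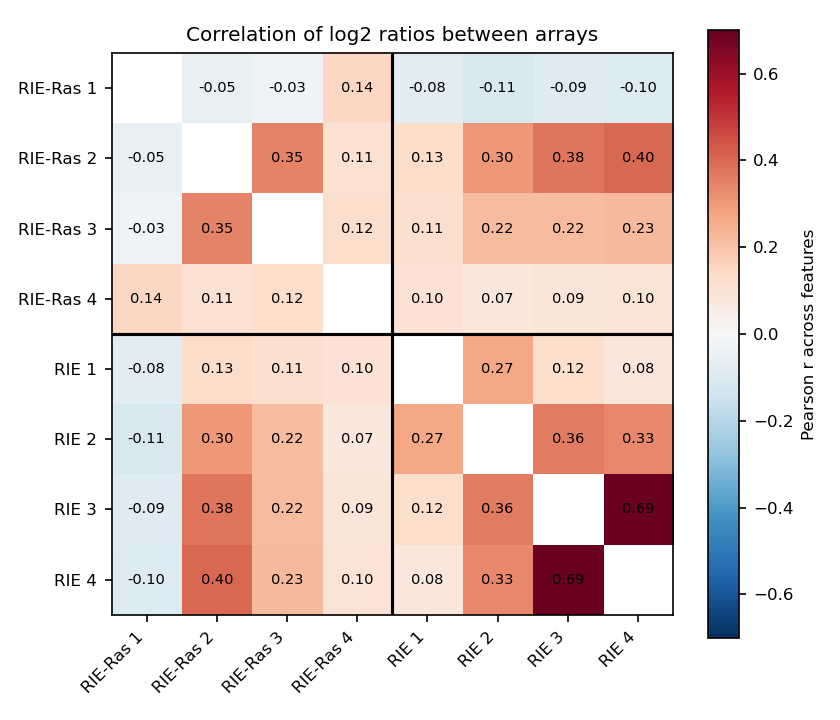
Pearson correlation of centred log2 ratios over all averaged features between the 8 arrays, RIE-Ras replicates 1 to 4 first and RIE replicates 1 to 4 after them, with black lines between the lines of cells. RIE-Ras replicate 1 has r near 0 with every array, and the highest value, 0.69, joins RIE replicates 3 and 4.

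No feature passed in the contrast of the lines (limma, two-sided, Benjamini-Hochberg over all features, threshold 0.05), so the differences below are measured values that missed this threshold (smallest adjusted p = 0.112). At an unadjusted p under 0.05 stood 1857 of 17402 features (10.7%), of which 1183 (6.80%) were higher in RIE-Ras and 674 (3.87%) lower. Within a line, 73 features (0.419%) passed in RIE-Ras and 13 (0.0747%) in RIE. A channel effect does not cancel within a line, and no dye swap is stated. A rise or fall given below for 1 line therefore cannot be told apart from such an effect. Arrays of the lines were apart on 1305 features (7.50%), on 870 (5.00%) with all RIE-Ras arrays above all RIE arrays and on 435 (2.50%) below. That balance depended on centring, since without it 543 features lay above and 569 below. Among the 9652 named features the shares at an unadjusted p under 0.05 were 6.50% higher and 3.35% lower, and those without overlap 5.17% higher and 2.42% lower. Over all features the median difference was 0.042 and 55.4% of differences were positive. Weighting each array by its quality gave 134 calls, 111 higher and 23 lower, but that fit gave RIE replicate 3 a weight of 8.7, against 0.365 to 1.1 for the others.

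**Figure D2:**
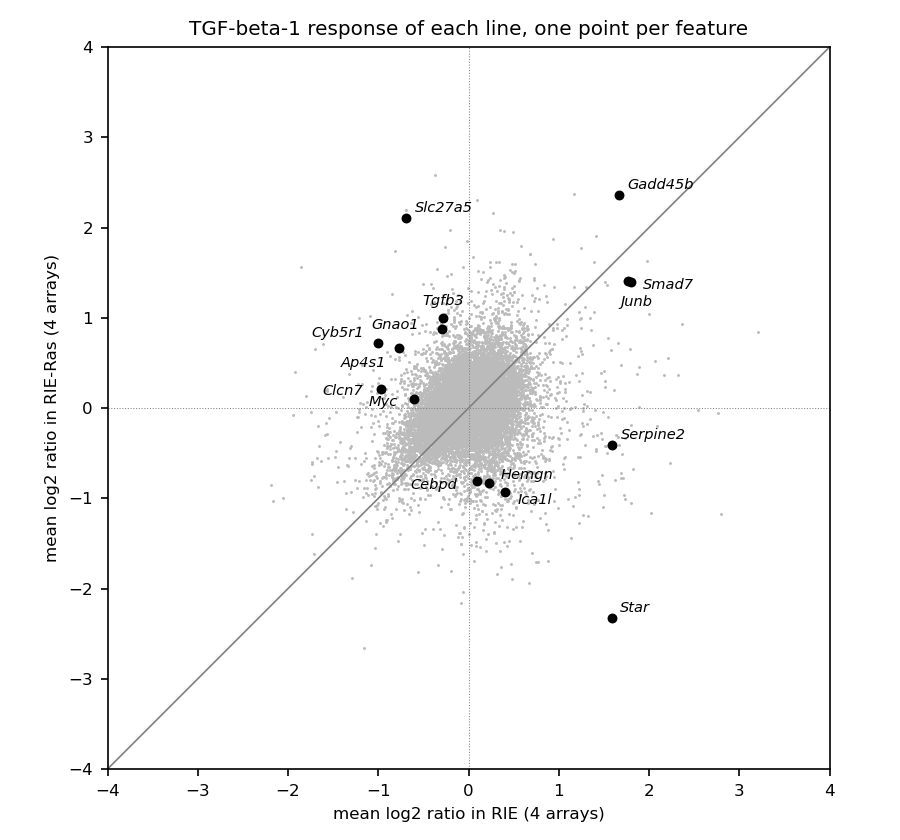
Mean log2 ratio of treated over control in RIE-Ras (y) against RIE (x), 1 grey point per feature and 4 arrays per mean, with a diagonal where the responses are equal. Smad7, Junb and Gadd45b lie at the upper right in both lines, Slc27a5 at 2.10 in RIE-Ras and -0.69 in RIE, and Star at -2.33 in RIE-Ras and 1.59 in RIE.

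The named genes with the smallest p on the higher side were led by Gnao1, which encodes a G protein alpha subunit best known from neurons. It stood at 1.26, 0.86, 0.73 and 0.64 on RIE-Ras replicates 1 to 4, against -0.42, -0.27, -0.28 and -0.19 on RIE replicates 1 to 4. All RIE-Ras values were above 0 and all RIE values below, and the difference was 1.16 ± 0.17 (log2 ± moderated SE, limma adjusted p = 0.228). Ap4s1, a subunit of the AP-4 adaptor complex of vesicle traffic, had 0.72, 0.38, 1.05 and 0.50 in RIE-Ras and -0.36, -0.69, -0.83 and -1.18 in RIE. Prss23, a secreted serine protease, had 0.37, 0.38, 0.57 and 0.28 in RIE-Ras and -0.58, -0.36, -0.45 and -0.47 in RIE. These genes had opposite signs in the lines on every array, with differences of 1.43 ± 0.22 and 0.87 ± 0.14. Clcn7, a lysosomal chloride and proton exchanger, had 0.33, -0.22, 0.49 and 0.25 in RIE-Ras, against -0.85, -0.84, -1.02 and -1.18 in RIE. Neu1, the lysosomal sialidase, had 1.07, 1.03, 1.52 and 1.58 in RIE-Ras, against 0.37, 0.21, -0.42 and -0.04 in RIE. For Clcn7 the difference of 1.19 ± 0.19 came mainly from values below 0 in RIE, and for Neu1 the difference of 1.28 ± 0.22 came with a rise in RIE-Ras (mean 1.30, adjusted p = 0.0386) and RIE values on both sides of 0. The other genes of this set were the zinc finger genes Zfp952 (1.19 ± 0.18) and Zfp26 (1.18 ± 0.20), Dlgap2, a postsynaptic scaffold gene (1.22 ± 0.20), Slc35c2, of the nucleotide sugar transporter family (1.48 ± 0.25), and Cyb5r1, a cytochrome b5 reductase (1.72 ± 0.30). For all 10 genes the RIE-Ras arrays lay above the RIE arrays.

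On the lower side the smallest p was that of Hemgn, a nuclear protein of blood-forming cells. It had -0.95, -0.66, -0.68 and -1.05 on the RIE-Ras arrays and 0.35, 0.09, 0.22 and 0.23 on the RIE arrays, a difference of -1.06 ± 0.15 (limma adjusted p = 0.228). It fell in RIE-Ras cells (mean -0.83, adjusted p = 0.0386), while the RIE mean of 0.22 did not pass (adjusted p = 0.325). Mgst3, a microsomal glutathione transferase, had -0.56, -0.50, -0.67 and -0.57 in RIE-Ras and 0.15, 0.03, 0.18 and 0.55 in RIE. Apln, the peptide ligand apelin, had -0.53, -0.77, -0.30 and -0.51 in RIE-Ras and 0.20, 0.07, 0.35 and 0.55 in RIE. Every RIE-Ras value of these genes was negative and every RIE value positive, and the differences were -0.80 ± 0.15 and -0.82 ± 0.17. Dusp15, a dual-specificity phosphatase, was near 0 in RIE-Ras (0.04, -0.04, 0.44 and -0.57) and high in RIE (1.21, 1.87, 1.01 and 0.98). Its difference was -1.30 ± 0.27. Ica1l (-1.33 ± 0.24), the homeobox genes Gbx2 (-0.73 ± 0.14) and Hoxc5 (-1.02 ± 0.20), Tmem178a (-0.76 ± 0.15), Star (-3.92 ± 0.85) and Andpro (-0.79 ± 0.18) completed the set, again with no overlap of the arrays.

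**Figure D3:**
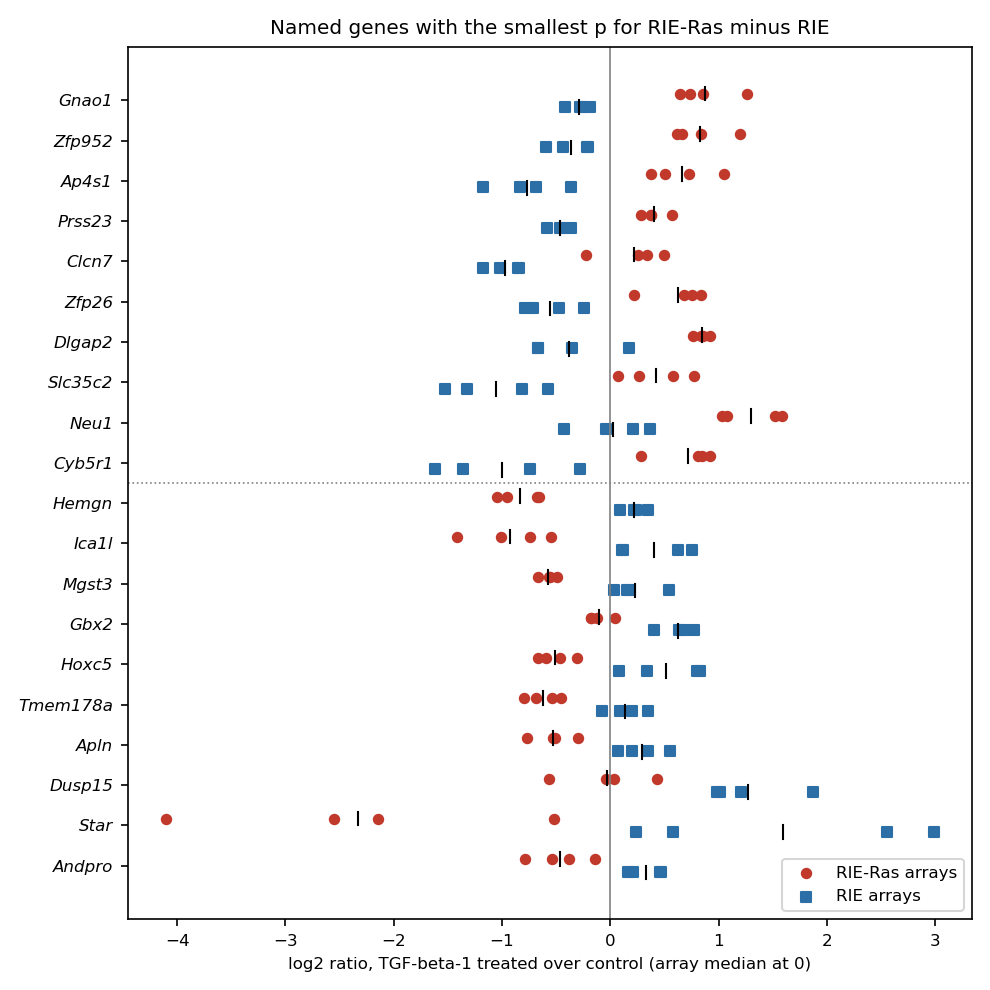
Log2 ratios of treated over control on each array for the 20 named genes with the smallest p in the contrast, RIE-Ras arrays as red circles above RIE arrays as blue squares, short black lines at the means. In each row the circles and squares are apart, with Gnao1 between 0.64 and 1.26 in RIE-Ras and Star spread from -4.10 to -0.52 there.

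A stricter pattern, all 4 RIE-Ras arrays above 0 and all 4 RIE arrays below, was met by 214 features (1.23%), and the reverse by 94 (0.540%). No gene of this kind passed the test. The largest named difference of the first kind was that of Slc27a5, a bile acid and fatty acid CoA ligase of liver, with 2.69, 3.07, 2.16 and 0.49 in RIE-Ras and -0.84, -0.06, -0.06 and -1.80 in RIE. The difference was 2.79 ± 0.60 (limma adjusted p = 0.228), and RIE replicates 2 and 3 lay close to 0. Others were the glypican Gpc3 (2.11 ± 0.63), Pogk (1.70 ± 0.45), the tropomyosin Tpm3 (1.66 ± 0.80), the gluconeogenic enzyme Fbp1 (1.57 ± 0.37), Iffo1 (1.55 ± 0.35) and the zinc finger gene Zfp655 (1.40 ± 0.27). Gpc3 stood at 0.04, 0.14, 0.64 and 2.76 on RIE-Ras replicates 1 to 4, and its difference was 1.485 without replicate 4. On RIE-Ras replicate 4 Pogk and Fbp1 lay close to 0, at 0.01 and 0.03. Tpm3 owed its size to RIE replicate 2 at -3.95, with -0.18, -0.30 and -0.32 on the other RIE arrays, and its difference was 0.74 without that array. Of the reverse kind, Star, which carries cholesterol into mitochondria for steroid synthesis, had -2.55, -0.52, -2.15 and -4.10 in RIE-Ras and 0.58, 0.23, 2.98 and 2.56 in RIE. The protease inhibitor Serpine2 had -0.45, -0.41, -0.12 and -0.66 in RIE-Ras and 0.63, 0.56, 4.18 and 1.00 in RIE. RIE replicate 3 was far above the rest for Serpine2, and the difference of -2.0 ± 0.74 was -1.14 without that array. The channel gene Panx1 (-1.96 ± 0.70), the taste receptor gene Tas2r13 (-2.31 ± 0.88), the testis cytochrome c gene Cyct (-1.61 ± 0.69) and Rhbdd2 (-1.25 ± 0.42) had their lowest value on RIE-Ras replicate 1, at -3.97, -4.55, -3.63 and -2.24, which is the array that stood apart. Without it the differences were -1.15 for Panx1, -1.32 for Tas2r13, -0.81 for Cyct and -0.78 for Rhbdd2. Rhbdd2 is the mean of 2 features, of which 1 differed by -2.52 and the other by 0.02. Oprpn (-2.10 ± 0.55), A1bg (-1.11 ± 0.33) and Clgn, an endoplasmic reticulum chaperone of testis (-1.10 ± 0.33), followed. Oprpn and A1bg had their lowest value on RIE-Ras replicate 4, at -2.63 and -1.55. Without that array their differences were -1.592 and -0.775.

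Among the TGF-beta family ligands and the proteins that hold them latent, 14 of 15 were measured, with a median difference of 0.05. At an unadjusted p under 0.05, 2 were higher and 1 lower in RIE-Ras (14.3% and 7.14%), where all features gave 6.80% and 3.87%. The ligands did not go the same way. Tgfb3 had 1.27, 0.98, 0.57 and 1.18 on the RIE-Ras arrays and 0.35, -0.18, -0.28 and -1.0 on the RIE arrays, a difference of 1.28 ± 0.29. Tgfb2 was near 0 in RIE-Ras (-0.01, 0.04, 0.39 and 0.07) and below 0 on every RIE array (-0.57, -0.42, -0.64 and -0.90), a difference of 0.76 ± 0.16. The arrays did not overlap for either gene, whereas for Tgfb1 they did, at -0.09, -0.16, -0.41 and -0.03 in RIE-Ras and 1.10, -0.07, -0.14 and 0.27 in RIE. The Tgfb1 difference of -0.46 had a 95% interval from -1.08 to 0.16. Inhba, the activin A subunit, differed by -0.56 ± 0.21 and Bmp2 by -0.62 ± 0.35. Without RIE replicate 1 the Bmp2 difference was -0.26, that of Tgfb1 -0.19, and no member of the list was lower at an unadjusted p under 0.05. In limma the adjusted p of Tgfb3 was 0.238 and that of Tgfb2 0.228.

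Of 13 receptors, 9 were measured. On the higher side, where all features gave 6.80%, 1 (11.1%), the activin type II receptor Acvr2b, had an unadjusted p under 0.05. It had 0.72, 0.45, 0.38 and 0.05 in RIE-Ras and -0.75, -0.14, -0.27 and -0.30 in RIE, opposite in sign on every array, with a difference of 0.77 ± 0.20. Bmpr2, the BMP type II receptor, differed by 0.42 ± 0.20. The TGF-beta type I receptor Tgfbr1 had 0.62, 0.99, 0.16 and 0.01 in RIE-Ras and 1.07, 0.58, 0.47 and 0.76 in RIE. These overlapped, and the difference of -0.27 had a 95% interval from -0.83 to 0.28. The co-receptor Tgfbr3 differed by 0.17 (-0.21 to 0.54).

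For the Smads, their co-repressors and feedback proteins, 16 of 21 were measured. On the higher side, where all features gave 6.80%, 1 (6.25%) had an unadjusted p under 0.05. This was Tgif1, a homeobox repressor that binds Smads, with 0.99, 0.86, 0.73 and 1.06 in RIE-Ras and 0.27, 0.38, 0.27 and 0.44 in RIE. Its lowest RIE-Ras value lay above its highest RIE value, and it rose in RIE-Ras (adjusted p = 0.0293) but did not pass in RIE (0.154). The difference itself was 0.57 ± 0.14 and did not pass either (limma adjusted p = 0.246). The receptor-regulated Smad2 had -0.09, -0.06, 0.25 and 0.09 in RIE-Ras and -0.20, -0.11, -0.43 and -0.45 in RIE, apart but by a small difference of 0.34 ± 0.15. Smad7, the inhibitory Smad induced as feedback, rose in both lines, with 1.75, 1.24, 1.25 and 1.32 in RIE-Ras and 2.59, 1.61, 1.45 and 1.55 in RIE. The 95% interval of its difference, -0.41, ran from -1.02 to 0.21, and the highest value in each line was on replicate 1. The difference was -0.14 without RIE replicate 1.

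**Figure D4:**
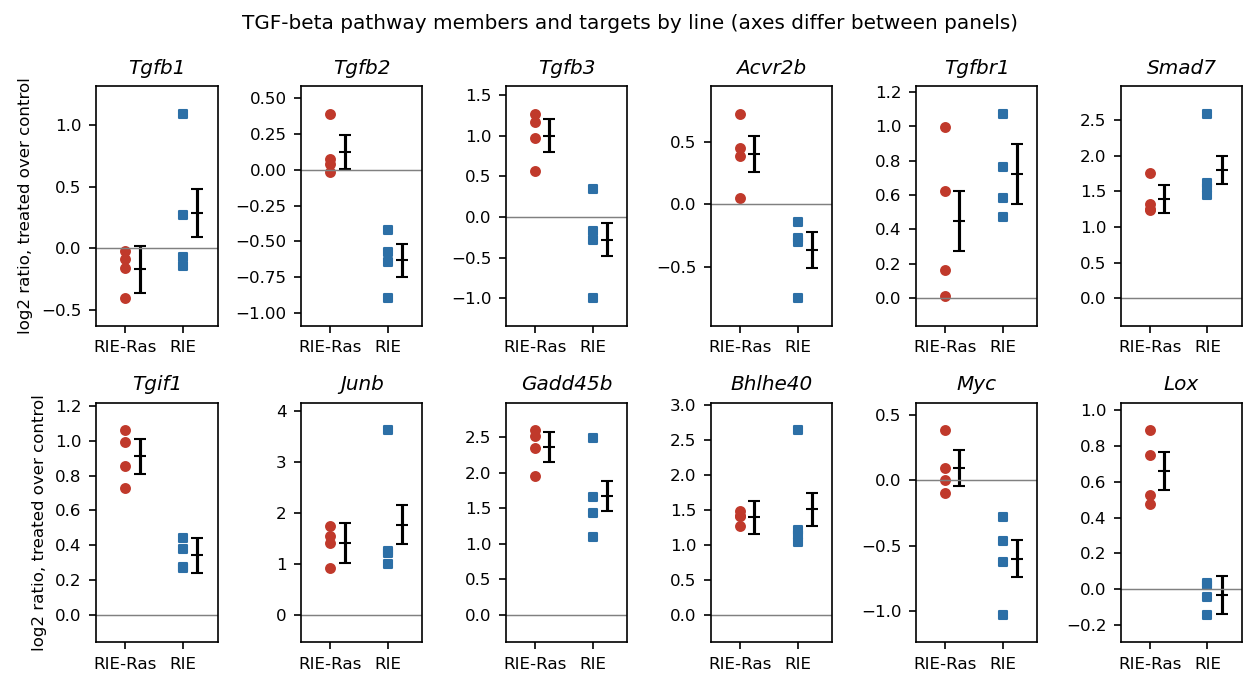
Log2 ratio of treated over control on each array for 12 pathway members and targets, RIE-Ras arrays left of RIE arrays, with the mean and moderated SE (n = 4) beside the points. Tgfb2, Tgfb3, Acvr2b, Tgif1, Myc and Lox separate the lines, while Tgfb1, Tgfbr1, Smad7, Junb, Gadd45b and Bhlhe40 overlap.

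Of 47 TGF-beta and immediate early targets, 38 were measured and 22 had positive differences. At an unadjusted p under 0.05, 7 (18.4%) were higher in RIE-Ras and none lower, where all features gave 6.80% and 3.87%. Gadd45b, a growth arrest and stress gene that rose in both, had 2.52, 2.35, 1.95 and 2.60 in RIE-Ras and 2.48, 1.66, 1.44 and 1.10 in RIE. RIE replicates 2 to 4 were below all RIE-Ras arrays, and the difference was 0.69 ± 0.30 (0.01 to 1.36). The AP-1 subunit gene Junb had 1.55, 1.40, 0.92 and 1.75 in RIE-Ras and 3.63, 0.99, 1.26 and 1.21 in RIE, and the repressor gene Bhlhe40 had 1.41, 1.28, 1.48 and 1.42 in RIE-Ras and 2.65, 1.15, 1.21 and 1.04 in RIE. RIE replicate 1 decided the sign of both: with it the differences were -0.37 ± 0.55 and -0.12 ± 0.34, without it 0.25 and 0.26. The zinc finger gene Klf10 differed by 0.28 (-0.57 to 1.13) and the dominant negative helix-loop-helix gene Id1 by 0.14 (-0.21 to 0.49). Gadd45a, a relative of Gadd45b, had 0.93, 0.51, 0.35 and 0.15 in RIE-Ras and -0.23, -0.02, -0.06 and -0.24 in RIE, a difference of 0.62 ± 0.19. The small GTPase gene Rhob and the zinc finger gene Klf6 differed by 0.47 ± 0.17 and 0.39 ± 0.14. Klf6 is the mean of 3 features, which differed by 0.26, 0.16 and 0.75. Without RIE replicate 1, 11 of the 38 targets (28.9%) were higher at that p, where all features gave 8.54%.

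Of the genes of the cytostatic program, 17 of 23 were measured, and 1 was higher and 1 lower at an unadjusted p under 0.05. These were 5.88% each, where all features gave 6.80% and 3.87%. Myc, the growth-promoting gene that TGF-beta commonly represses, had 0.10, -0.10, 0.00 and 0.38 in RIE-Ras and -0.63, -0.28, -0.47 and -1.03 in RIE. Every RIE value was below every RIE-Ras value, and the difference was 0.70 ± 0.20 (limma adjusted p = 0.311). The mean of -0.60 in RIE did not pass on its own (adjusted p = 0.129). The lower gene was Cdkn1a, the mean of 3 features, with -0.25, -0.54, -0.47 and -0.03 in RIE-Ras and 0.57, 0.12, 0.15 and 0.04 in RIE. Its signs were opposite in the lines on every array, and the difference was -0.55 ± 0.18 (limma adjusted p = 0.370). Replicate 4 lay close to 0 in both lines, at -0.03 in RIE-Ras and 0.04 in RIE, and RIE replicate 1 was the highest array. For Cdkn1a the 3 features apart and the difference with 1 array left out are not given.

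In the Ras, Raf, MEK and ERK cascade, 25 of 31 genes were measured. At an unadjusted p under 0.05, 3 (12.0%) were lower in RIE-Ras and none higher, where all features gave 3.87% and 6.80%. The Hras feature had 0.02, -0.17, -0.22 and 0.02 in RIE-Ras and 0.58, 0.14, 0.26 and 0.20 in RIE, without overlap, and a difference of -0.38 ± 0.15. Whether it also binds human H-Ras transcripts was not tested. The Ras GTPase-activating gene Nf1 differed by -1.50 ± 0.53, with values in RIE-Ras from -2.25 to 0.28 and in RIE from 0.13 to 1.42. The Ras relative Rras2 differed by -0.50 ± 0.18 and the Ras effector GTPase Ralb by -0.26 ± 0.13. Without RIE replicate 1, 1 of the 25 (4.0%) was lower and 1 higher, where 3.82% of all features were lower. Of the 12 measured ERK feedback genes none had an unadjusted p under 0.05. Dusp6, the ERK phosphatase, fell in RIE-Ras (mean -0.90, adjusted p = 0.0386) and had a mean of -0.79 in RIE (0.0649), with a difference of -0.11 (-0.49 to 0.27). Dusp5 had -0.57, -0.63, -0.41 and -0.45 in RIE-Ras and -0.38, -0.35, -0.08 and -0.24 in RIE. The Dusp5 arrays did not overlap although the difference was only -0.25 ± 0.14. Dusp2 differed by -0.24 ± 0.15 and the receptor kinase inhibitor Spry4 by 0.17 ± 0.20.

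The matrix and matricellular list had 22 of 28 genes measured and 15 positive differences. At an unadjusted p under 0.05, 3 (13.6%) were higher, where all features gave 6.80%. Lox, lysyl oxidase, which crosslinks collagen, had 0.89, 0.75, 0.48 and 0.53 in RIE-Ras and -0.14, 0.03, 0.02 and -0.04 in RIE. The RIE arrays lay near 0 while Lox rose in RIE-Ras (adjusted p = 0.0474), and the difference was 0.69 ± 0.15 (limma adjusted p = 0.228). The collagen gene Col1a2 was below 0 on all 8 arrays, with a mean of -0.76 in RIE-Ras and -1.71 in RIE. Its arrays overlapped, and the difference of 0.95 ± 0.41 was 0.54 without RIE replicate 2, which stood at -2.95. The integrin gene Itgb1 differed by 0.44 ± 0.19 and thrombospondin 1, Thbs1, by 0.42 ± 0.19, the mean of 4 features. Those features of Thbs1 differed by 0.07, 0.42, 0.88 and 0.33. Of the junction, keratin and mesenchymal genes, 14 of 25 were measured. At an unadjusted p under 0.05 Tagln, an actin-binding protein, was higher (0.67 ± 0.26) and the intermediate filament gene Vim lower (-0.95 ± 0.37). These were 7.14% each, where all features gave 6.80% and 3.87%. The Vim difference was -0.60 without RIE-Ras replicate 4, and without RIE replicate 1 no member of the list was lower at that p. Among the EGF family and angiogenic factors Vegfa had 1.87, 1.06, 0.47 and 1.09 in RIE-Ras and 1.93, 1.40, 0.85 and 0.97 in RIE. These overlapped (difference -0.17, -0.93 to 0.59), while Fgf2 differed by 0.67 ± 0.24 and Btc by -0.86 ± 0.41. Btc was at -1.77 on RIE-Ras replicate 1, and its difference was -0.43 without that array.

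Of the NF-kappaB and inflammatory genes, 21 of 25 were measured. At an unadjusted p under 0.05 none was higher and 3 (14.3%) were lower, where all features gave 6.80% and 3.87%. Cebpd, a transcription factor of the acute phase response, had -1.11, -1.01, -0.60 and -0.52 in RIE-Ras and 0.65, -0.05, -0.12 and -0.10 in RIE. It was negative on each RIE-Ras array and near 0 on the RIE arrays other than replicate 1, with a difference of -0.91 ± 0.23. The adhesion molecule Vcam1 differed by -0.48 ± 0.19 and the cytokine signalling inhibitor Socs3 by -0.57 ± 0.25, whereas Stat3 stood at 0.34 ± 0.15. Leaving out RIE replicate 1 gave 2 of the 21 (9.52%) higher and 4 (19.0%) lower, where all features gave 8.54% and 3.82%. In the prostaglandin list, 11 of 12 genes were measured and 8 had negative differences. At an unadjusted p under 0.05, 1 (9.09%) was lower, thromboxane synthase, Tbxas1 (-0.79 ± 0.27). None was higher, where all features gave 3.87% lower and 6.80% higher. The inducible cyclooxygenase gene Ptgs2 had 0.32, 0.17, -0.21 and -0.12 in RIE-Ras and -0.33, 0.02, 0.26 and 0.02 in RIE, a difference of 0.05 (-0.38 to 0.47).

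Cell cycle and DNA replication genes had the highest share of members on the higher side of the lists examined. Of 33 genes 29 were measured and 23 had positive differences. At an unadjusted p under 0.05, 6 (20.7%) were higher and none lower, where all features gave 6.80% and 3.87%. On 5 (17.2%) all RIE-Ras arrays lay above all RIE arrays, where all features gave 5.00%. The median difference of the list was 0.23. Bub1, a mitotic checkpoint kinase, had 0.78, 0.53, 0.52 and 0.72 in RIE-Ras and -0.49, -0.05, -0.32 and -1.03 in RIE. Top2a, the topoisomerase of dividing cells, had 0.81, 0.22, 0.31 and 0.64 in RIE-Ras and -0.05, 0.01, -0.47 and -0.90 in RIE. Both were positive throughout RIE-Ras, and the differences were 1.11 ± 0.22 and 0.85 ± 0.24 (limma adjusted p = 0.228 and 0.311). Pola1, the catalytic subunit of DNA polymerase alpha, had 0.71, 0.62, 0.65 and 1.06 in RIE-Ras and 0.15, 0.20, 0.22 and -0.32 in RIE. Ccnb2, a mitotic cyclin, had 0.30, -0.01, 0.18 and 0.71 in RIE-Ras and -0.04, -0.15, -0.50 and -0.83 in RIE. RIE replicate 4 was the lowest array for all 4 genes. The median of the list on single arrays was -0.17, -0.11, -0.14 and 0.26 in RIE-Ras and 0.11, -0.27, -0.34 and -0.58 in RIE, so RIE replicate 1 lay above 3 of the RIE-Ras arrays. Without that array 10 of the 29 members (34.5%) were higher at an unadjusted p under 0.05, where all features gave 8.54%. The median difference was then 0.39.

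The promoters of these 4 genes are shown because cell cycle genes are known to carry CCAAT boxes, bound by NF-Y, and TTTGAA elements, bound by the repressor complex of resting cells. The sequences run from 250 bases before to 50 after the start of the gene, from RefSeq on assembly GRCr8, with exact matches to CCAAT or TTTGAA on either strand in capitals.
Top2a promoter: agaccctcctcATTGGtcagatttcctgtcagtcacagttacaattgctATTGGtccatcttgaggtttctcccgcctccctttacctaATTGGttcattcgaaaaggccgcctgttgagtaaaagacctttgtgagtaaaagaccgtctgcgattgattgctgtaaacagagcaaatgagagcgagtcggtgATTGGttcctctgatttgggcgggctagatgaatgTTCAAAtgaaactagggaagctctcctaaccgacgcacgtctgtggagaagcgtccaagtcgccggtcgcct
Ccnb2 promoter: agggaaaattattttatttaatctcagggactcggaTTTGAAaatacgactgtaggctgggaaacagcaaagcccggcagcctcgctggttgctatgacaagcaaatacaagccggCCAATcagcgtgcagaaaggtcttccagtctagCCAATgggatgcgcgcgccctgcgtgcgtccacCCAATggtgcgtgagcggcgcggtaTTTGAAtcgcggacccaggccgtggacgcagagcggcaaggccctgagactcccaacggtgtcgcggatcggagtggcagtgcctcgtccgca
Pola1 promoter: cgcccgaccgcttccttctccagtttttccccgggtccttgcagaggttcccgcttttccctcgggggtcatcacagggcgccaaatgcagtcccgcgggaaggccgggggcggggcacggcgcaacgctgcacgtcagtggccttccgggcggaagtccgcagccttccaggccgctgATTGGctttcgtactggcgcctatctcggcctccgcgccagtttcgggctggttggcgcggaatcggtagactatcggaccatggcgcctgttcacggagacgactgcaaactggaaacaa
Bub1 promoter: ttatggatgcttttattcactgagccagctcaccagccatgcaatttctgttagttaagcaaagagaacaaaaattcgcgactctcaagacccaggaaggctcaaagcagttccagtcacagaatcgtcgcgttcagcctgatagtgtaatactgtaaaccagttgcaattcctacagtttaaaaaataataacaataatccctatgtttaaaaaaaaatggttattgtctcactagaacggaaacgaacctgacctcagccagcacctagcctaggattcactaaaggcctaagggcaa
The windows are chr10:84473044-84473343 for Top2a, chr8:79981609-79981908 for Ccnb2, chrX:62342306-62342605 for Pola1 and chr3:135504872-135505171 for Bub1, all on the minus strand. Top2a holds 4 CCAAT matches and 1 TTTGAA match, Ccnb2 3 and 2, and Pola1 1 CCAAT match. The window of Bub1 holds neither run of letters. No match of the motifs overlaps another here. Among the 24 measured cell cycle and replication genes with a promoter in the table, 70.8% hold CCAAT and 45.8% TTTGAA, where 37.7% and 18.1% of all 27457 promoters of that length do. This is a description of letters, and binding was not measured.

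Ribosomal protein, respiration and heat shock genes had list medians below 0 in both lines and median differences above 0. Of the ribosomal protein genes 40 of 60 were measured, with a median response of -0.78 in RIE-Ras and -0.89 in RIE, and 28 positive differences. At an unadjusted p under 0.05, 5 (12.5%) were higher and none lower, where all features gave 6.80% and 3.87%. Rps29 had -0.55, -1.15, -0.89 and -0.83 in RIE-Ras and -3.04, -2.86, -1.02 and -1.82 in RIE, and Rps24 had -0.22, -0.78, -0.66 and -0.27 in RIE-Ras and -1.50, -2.07, -1.05 and -1.26 in RIE. The differences were 1.33 ± 0.42 and 0.99 ± 0.25, and those of Rpl27 and Rpl32 1.11 ± 0.23 and 0.95 ± 0.29. Rpl27 is the mean of 2 features, which differed by 0.49 and 1.73. On single arrays the list median ran from -0.97 to -0.60 in RIE-Ras and from -1.61 to -0.21 in RIE, so the spread of the RIE arrays spanned that of RIE-Ras. The median difference was 0.14. Without RIE replicate 1 it was 0.38, with 6 members (15.0%) higher at that p, where all features gave 8.54%. In the list of heat shock and unfolded protein genes 20 of 25 were measured and 16 had positive differences. At an unadjusted p under 0.05, 3 (15%) were higher, where all features gave 6.80%. Hspa1a, the inducible Hsp70 gene, had 0.33, -0.15, 0.48 and 0.90 in RIE-Ras and -0.38, -0.39, -0.68 and -1.40 in RIE. Its arrays did not overlap (1.10 ± 0.29), and the chaperone genes Dnaja1 and Hsp90aa1 differed by 0.48 ± 0.20 and 0.67 ± 0.29. The median difference was 0.19. Without RIE replicate 1 it was 0.38, with 19 of 20 differences positive. At that p 5 (25.0%) were then higher, where all features gave 8.54%. On single arrays the list median was -0.14, -0.28, -0.11 and -0.05 in RIE-Ras and 0.07, -0.34, -0.35 and -0.76 in RIE. Respiration genes had 20 of 26 positive differences and a median of 0.20. At an unadjusted p under 0.05, 1 member (3.85%) was lower, Ndufv1, a complex I subunit (-0.54 ± 0.18). None was higher, where all features gave 3.87% lower and 6.80% higher. Without RIE replicate 1, 5 of the 26 (19.2%) were higher and 1 lower, where all features gave 8.54% and 3.82%. The median difference was then 0.36. On single arrays the list median was -0.47, -0.57, -0.43 and -0.29 in RIE-Ras and 0.04, -0.54, -0.68 and -1.21 in RIE. For the ribosomal, heat shock and respiration lists RIE replicate 1 had the highest median and RIE replicate 4 the lowest. No list was fitted again without RIE replicate 4.

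Of 18 measured genes of sterol and fatty acid synthesis 3 (16.7%) were higher at an unadjusted p under 0.05, where all features gave 6.80%. These were the fatty acid enzymes Acly (0.85 ± 0.28) and Acaca (0.51 ± 0.19) and the sterol sensor partner Insig1 (0.77 ± 0.31). The list median was -0.01. With RIE replicate 1 left out, 2 of the 18 (11.1%) were higher at that p, where all features gave 8.54%. Of 16 measured glycolysis genes 12 had negative differences. At that p 3 (18.8%) were lower and none higher, where all features gave 3.87% and 6.80%. Eno1, enolase, had -0.63, -1.09, -0.77 and -0.86 in RIE-Ras and 0.11, -0.52, -0.35 and -0.17 in RIE. It fell in RIE-Ras (adjusted p = 0.0454), the arrays of the lines were apart, and the difference was -0.61 ± 0.18. Aldolase A, Aldoa (-0.32 ± 0.14), and the phosphofructokinase Pfkp (-0.55 ± 0.22) were also without overlap. RIE replicate 1 entered this too: without it 1 of the 16 (6.25%) was lower, where all features gave 3.82%, and the median difference was 0.05, against -0.16 with it.

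**Figure D5:**
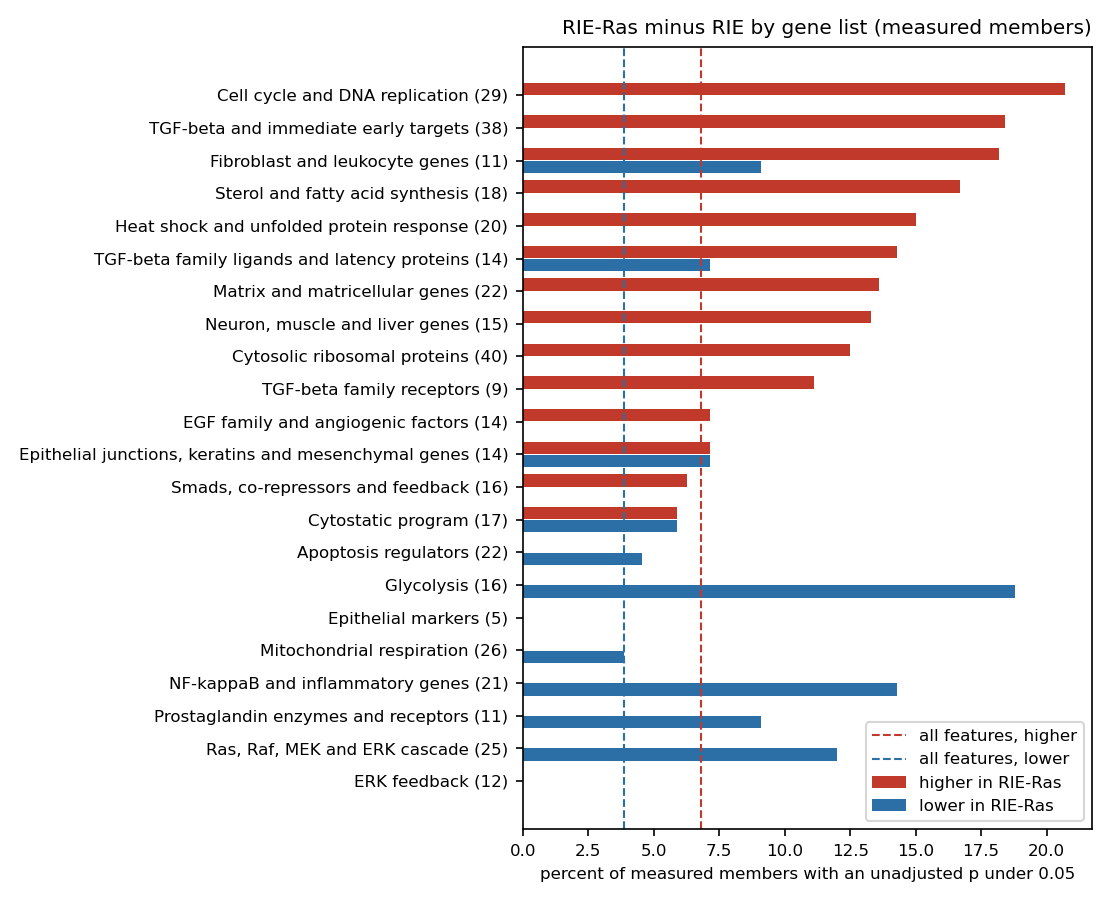
Share of the measured members of each gene list (number in brackets) with an unadjusted p under 0.05 in the contrast, higher in RIE-Ras in red and lower in blue, with dashed lines at the shares of all features, 6.80% and 3.87%. Cell cycle genes reach 20.7% on the higher side and glycolysis genes 18.8% on the lower side.

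Marker genes of other cell types were described the same way. Of 15 measured neuron, muscle and liver genes 7 had positive and 8 negative differences, with a median of -0.113. At an unadjusted p under 0.05, 2 were higher, Gnao1 and the liver glycoprotein gene Ahsg (0.68 ± 0.23), and none lower. The Ahsg arrays overlapped. The muscle creatine kinase gene Ckm and the synaptic gene Syt1 stood at -0.56 ± 0.25 and -0.65 ± 0.29. The Ckm difference was -0.36 without RIE replicate 1. The share of these 15 genes on the higher side was 13.3%, where all features gave 6.80%. The ribosomal protein genes gave 12.5%, the matrix genes 13.6%, the targets 18.4% and the cell cycle genes 20.7%. Without RIE replicate 1, 2 of the 15 (13.3%) were higher and 1 (6.67%) lower, where all features gave 8.54% and 3.82%. The median difference of the 15 was then -0.12. Fibroblast and leukocyte genes had 2 of 11 (18.2%) higher and 1 (9.09%) lower, where all features gave 6.80% and 3.87%. Without RIE replicate 1 none was higher and 2 (18.2%) were lower, where 3.82% of all features were lower. None of the 5 measured epithelial markers had an unadjusted p under 0.05.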

How the data were processed

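The authors deposited 1 log2 value per feature and array, which per the labels is the TGF-beta-1 treated over the control signal. The scale was found from the values, whose fold changes are whole hundredths (tolerance 0.01 of a hundredth) for 100% of values. The labels state no dye swap; the scanner, dyes, background correction and normalization are not given in the labels or files; depth has no meaning for these ratios; the number of arrays limits the precision. Features were named through the platform annotation, with symbols updated to assembly GRCr8: 12750 features had 1 symbol, 5 several and 7745 none. Arrays were centred on their medians and features of 1 symbol averaged. All 8 arrays were fitted with limma 3.58.1 under R 4.3.3 (functions lmFit and eBayes, 6 residual and 2.71 prior degrees of freedom), with 1 mean per line and the contrast RIE-Ras minus RIE; the SE and 95% intervals are those of this fit. Array measures were compared by an exact permutation test over 70 assignments. The fit was tested on simulated data. Members, lists and the rule for named genes were chosen with earlier results of these data known. The rule took the 10 genes with the smallest p and the 10 with the largest opposite-sign difference on each side. It added up to 4 members per list with the smallest p and a set of pathway genes. With the named genes that passed within a line these were 174 in all. Of these, 100 were followed in the closing sections, and the text also names Cdkn1a. Arrays of the same replicate number were not paired in the fit (r of their deviations -0.05 to 0.07).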

Additional observations from a re-analysis of the deposited data

Results flagged for a closer look

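On 15 of 206 sets of 4 arrays (7.28%) 1 array lay far from the other 3 by Dixon's criterion, where chance alone marks about 5% of sets. In RIE-Ras these were replicate 1 for Smad7 (1.75), Klf6 (0.30) and Rhbdd2 (-2.24), and replicate 2 for Cyb5r1 (0.28) and Vcam1 (-0.47). In RIE they were replicate 1 for Smad7 (2.59), Junb (3.63), Bhlhe40 (2.65), Cebpd (0.65) and Tbxas1 (0.42), replicate 2 for Tpm3 (-3.95), replicate 3 for Serpine2 (4.18) and replicate 4 for Pola1 (-0.32) and Insig1 (-1.24). The share of features below -1 was also far higher on RIE replicate 4, at 6.88%, than on the other RIE arrays.

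The rule took genes of opposite sign in the lines, so their count among the 100 followed genes is set by that choice. Over all features the pattern was met by 214 (1.23%) with RIE-Ras positive and 94 (0.540%) with RIE-Ras negative. Cdkn1a also met it and is not among the 100. On 32 of the followed genes every RIE-Ras array had 1 sign and every RIE array the opposite one. The log2 difference RIE-Ras minus RIE was positive for 17 of them, Gnao1 (1.16), Zfp952 (1.19), Ap4s1 (1.43), Prss23 (0.87), Zfp26 (1.18), Slc35c2 (1.48), Cyb5r1 (1.72), Slc27a5 (2.79), Gpc3 (2.11), Pogk (1.70), Tpm3 (1.66), Fbp1 (1.57), Iffo1 (1.55), Zfp655 (1.40), Acvr2b (0.77), Gadd45a (0.62) and Bub1 (1.11). It was negative for 15, Hemgn (-1.06), Ica1l (-1.33), Mgst3 (-0.80), Hoxc5 (-1.02), Apln (-0.82), Star (-3.92), Andpro (-0.79), Tas2r13 (-2.31), Oprpn (-2.10), Serpine2 (-2.0), Panx1 (-1.96), Cyct (-1.61), Rhbdd2 (-1.25), A1bg (-1.11) and Clgn (-1.10). The difference was tested with limma across all features, and none of these genes passed at an adjusted p of 0.05.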

How the results depend on the processing

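The count of features that passed in the contrast, 0 of 17402 by limma with 1857 at an unadjusted p under 0.05, stayed 0 with equal spread on every array, quantile normalization, features kept apart, robust eBayes, a threshold of 0.10 and RIE replicates 3 and 4 averaged, the last chosen after seeing the data. It was 1 without centring and 1 with ratios limited to between -3 and 3. With array weights it was 134 (111 higher, 23 lower), and 21 of the 100 followed genes passed. Leaving out 1 array in turn gave 0 to 2, the values above 0 being 1 when RIE-Ras replicate 3, 2 when RIE-Ras replicate 4 and 1 when RIE replicate 1 was absent. With the replicate block it was 0, with a smallest adjusted p of 0.262. The correlations of deviations between same-numbered arrays were 0.065, -0.041, -0.024 and -0.054. The labels do not say whether arrays of the same number share a culture or a day. Features without overlap, 1305 with all arrays, were 1575 to 2405 when 1 array was left out, since fewer arrays must be apart, and 1112 without centring. The difference in SD ran from -0.0131 (without RIE replicate 2) to 0.0849, and that in the percent below -1 from -1.06 (without RIE-Ras replicate 1) to 2.13; the percent above 1 stayed higher in RIE-Ras. Of the 100 followed genes 92 kept their sign throughout. With array weights the difference was 0.15 for Bhlhe40, 0.098 for Dusp6, -0.017 for Id1, 0.028 for Junb, -0.179 for Ptgs2 and 0.064 for Vegfa. With equal spread it was 0.064 for Dusp6, and for Ptgs2 it was -0.025 without centring and -0.007 after quantile normalization. With 1 array left out it ran from -0.272 to 0.262 for Bhlhe40, from -0.624 to 0.254 for Junb, from -0.035 to 0.60 for Klf10, from -0.059 to 0.138 for Ptgs2 and from -0.415 to 0.051 for Vegfa, and the values of opposite sign include -0.047 for Ptgs2 and 0.047 for Vegfa. For Rhbdd2, 1 of its 2 features stood at 0.021. The cause of these changes was not tested. The median difference of all features was 0.042 with centring, -0.031 without and 0.020 after quantile normalization.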

Other observations

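A group of numbered zinc finger genes was chosen after the values had been seen, so it is given as a description with no test. Of its 114 members 67 had positive and 47 negative differences, with a median of 0.075, beside 0.046 for all named features. At an unadjusted p under 0.05 stood 20 on the higher side (17.5%) and 2 on the lower side (1.75%), beside 6.80% and 3.87% of all features. Without RIE replicate 1 these were 23 (20.2%) and 2 (1.75%), beside 8.54% and 3.82% of all features. Of 22 measured apoptosis regulators 11 differences were positive and 11 negative. At that p 1 (4.55%) was lower and none higher, beside 3.87% and 6.80% of all features. Without RIE replicate 1 none was lower or higher, beside 3.82% and 8.54% of all features.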
